A study of Mus musculus with 15 samples.

Results

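Aminoacyl tRNA synthetases are the enzymes that join each amino acid to its tRNA, and the 37 genes described here are the nuclear genes for them whose symbols follow the usual pattern of an amino acid letter and "ars", with Farsa, Farsb and Tarsl2. They were found by symbol in the 3 deposited tables, and all 37 were present in each table, among 19261 genes with a value in every mouse. By symbol, 20 encode cytosolic and 17 mitochondrial enzymes. All 37 passed the filter of more than 0.5 TPM in at least 5 mice that left 17714 genes for testing. The symbol pattern does not take in Eprs, the gene of the bifunctional enzyme for glutamate and proline, which is described beside the 37.

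The tissue was a mix of corpus callosum with neocortex, and RNA-seq was done on 15 mice, all wild type, with 5 in each of 3 groups. Siponimod mice received 0.25% (w/w) cuprizone for 3 weeks and siponimod at 3.125 mg/kg. Vehicle mice received the same cuprizone feed for 3 weeks and vehicle. Control mice received standard chow and no treatment, so they had neither cuprizone nor vehicle, and the vehicle against control comparison holds both. Cuprizone is a copper-binding toxin that injures oligodendrocytes, and siponimod modulates sphingosine 1-phosphate receptors. Strain, sex and age are not given in the labels used here.

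Synthetases charge tRNA in the cytosol and, with a mostly separate set of enzymes encoded in the nucleus, in mitochondria. Several cytosolic synthetases sit in a multi-synthetase complex held together by the scaffold proteins Aimp1, Aimp2 and Eef1e1, while the others are free. When uncharged tRNA or another stress activates a kinase of the translation factor eIF2, the transcription factor ATF4 is translated and raises genes of amino acid synthesis and transport, and many cytosolic synthetase genes are known ATF4 targets. In humans, inherited defects of several synthetases, such as those of DARS, RARS, EARS2 and AARS2, cause diseases of white matter.

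The libraries were of unequal character. The median gene of vehicle mouse 1 was at 5.54 TPM, against 11.8 to 13.0 TPM in the 14 other mice, and the noncoding RNA Bc1 took 35.3% of its TPM, against 6.02% to 10.8% elsewhere. Values for each mouse are therefore given as deposited, while fold changes and tests use TPM scaled so that the median gene was equal in all mice. After scaling, the synthetases of vehicle mouse 1 still lay between −1.03 and 1.79 on the log2 scale from the mean of the other vehicle mice, with a median of 0.33. For siponimod mouse 1 the same offsets ran from −0.28 to 0.19. Its median gene, at 12.8 TPM, and its Bc1 share, 6.93%, lay within the ranges of the other mice. Settings below without both of these mice therefore also leave out a library that was not unusual in these measures. Summed TPM of 10 oligodendrocyte markers were 729 to 1485 in siponimod, 549 to 1354 in vehicle and 3539 to 5416 in control mice, and those of 10 microglia and macrophage markers 445 to 727, 497 to 893 and 378 to 418. None of these 20 markers was at 0 in any mouse. Summed TPM of 4 striatum markers were 126.9 to 142.6 in siponimod, 80.3 to 191.5 in vehicle and 89.7 to 222.6 in control mice. Whether the dissection differed between mice was not tested. In bulk tissue, fewer cells of a type and less RNA per cell cannot be told apart, and the part of these shifts in the values below was not tested.

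The cytosolic synthetases spanned a wide range of levels. Sars, the serine enzyme on chromosome 3 (GRCm38, 108424865 to 108445209, minus strand), was the highest of them, with 200, 215, 204, 216 and 215 TPM in siponimod mice, 116, 183, 205, 216 and 219 TPM in vehicle mice and 218, 204, 196, 204 and 180 TPM in control mice. The groups overlapped, and the single low value belonged to vehicle mouse 1. Nars, the asparagine enzyme, followed with 175 ± 8.72 TPM in siponimod, 161 ± 32.1 TPM in vehicle and 167 ± 12.01 TPM in control mice (SD, n = 5 each).

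Below these came Gars, the glycine enzyme, with a control mean of 98.0 TPM, then Yars, Hars, Aars, Wars and Kars, the enzymes for tyrosine, histidine, alanine, tryptophan and lysine, between 53.0 and 74.8 TPM in control mice. Gars and Kars each encode both a cytosolic and a mitochondrial form of their enzyme, so their transcripts serve both compartments. The remaining cytosolic members lay between 21.7 TPM for Tars, the threonine enzyme, and 45.3 TPM for Farsb and Mars1 in control mice. Farsa and Farsb, the 2 subunits of the phenylalanine enzyme, had control means of 33.2 and 45.3 TPM. The 7 members of the multi-synthetase complex (Dars, Iars, Kars, Lars, Mars1, Qars and Rars) had control means of 27.7 to 53.0 TPM, a narrower band than the 21.7 to 200.3 TPM of the 13 others. The median of the 20 cytosolic means was 47.1 TPM in siponimod, 44.8 TPM in vehicle and 45.0 TPM in control mice.

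The mitochondrial enzymes were lower as a group. Their median of means was 16.6 TPM in siponimod, 15.3 TPM in vehicle and 17.2 TPM in control mice. Fars2, the mitochondrial phenylalanine enzyme, was highest with a control mean of 48.4 ± 7.62 TPM, ahead of Hars2 at 29.4 ± 3.70 TPM and Lars2 at 28.2 ± 2.31 TPM (SD, n = 5 each). The lowest were Ears2, Mars2 and Wars2, the glutamate, methionine and tryptophan enzymes, at 4.44 ± 0.318, 4.41 ± 0.364 and 2.85 ± 0.467 TPM (SD, n = 5 each). In the order of control means, 29 of the 36 pairs of neighbours among the 37 genes had control ranges that overlapped.

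For 14 amino acids a cytosolic gene could be set against its mitochondrial partner in the same mouse. TPM adjusts for transcript length only if reads came from whole transcripts, which is not settled for these libraries. The ratios below and the order of levels above depend on this. In control mice the cytosolic gene was the higher of the pair in every mouse for 12 of the 14. The ratio was near 20 for tryptophan, serine and asparagine. Sars over Sars2, for example, was 20.3 ± 1.99 in siponimod, 22.5 ± 1.96 in vehicle and 20.8 ± 0.900 in control mice (SD, n = 5 each). At the other end, Iars over Iars2 was 1.21 ± 0.0551, 1.13 ± 0.272 and 1.18 ± 0.0930 in the siponimod, vehicle and control mice (SD, n = 5 each). Leucine and threonine were the 2 exceptions. Lars over Lars2 was 1.05 ± 0.185 in siponimod, 0.901 ± 0.140 in vehicle and 1.16 ± 0.136 in control mice, and Tars over Tars2 was 0.898 ± 0.143, 0.883 ± 0.0635 and 0.849 ± 0.107 (SD, n = 5 each).

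**Figure D1:**
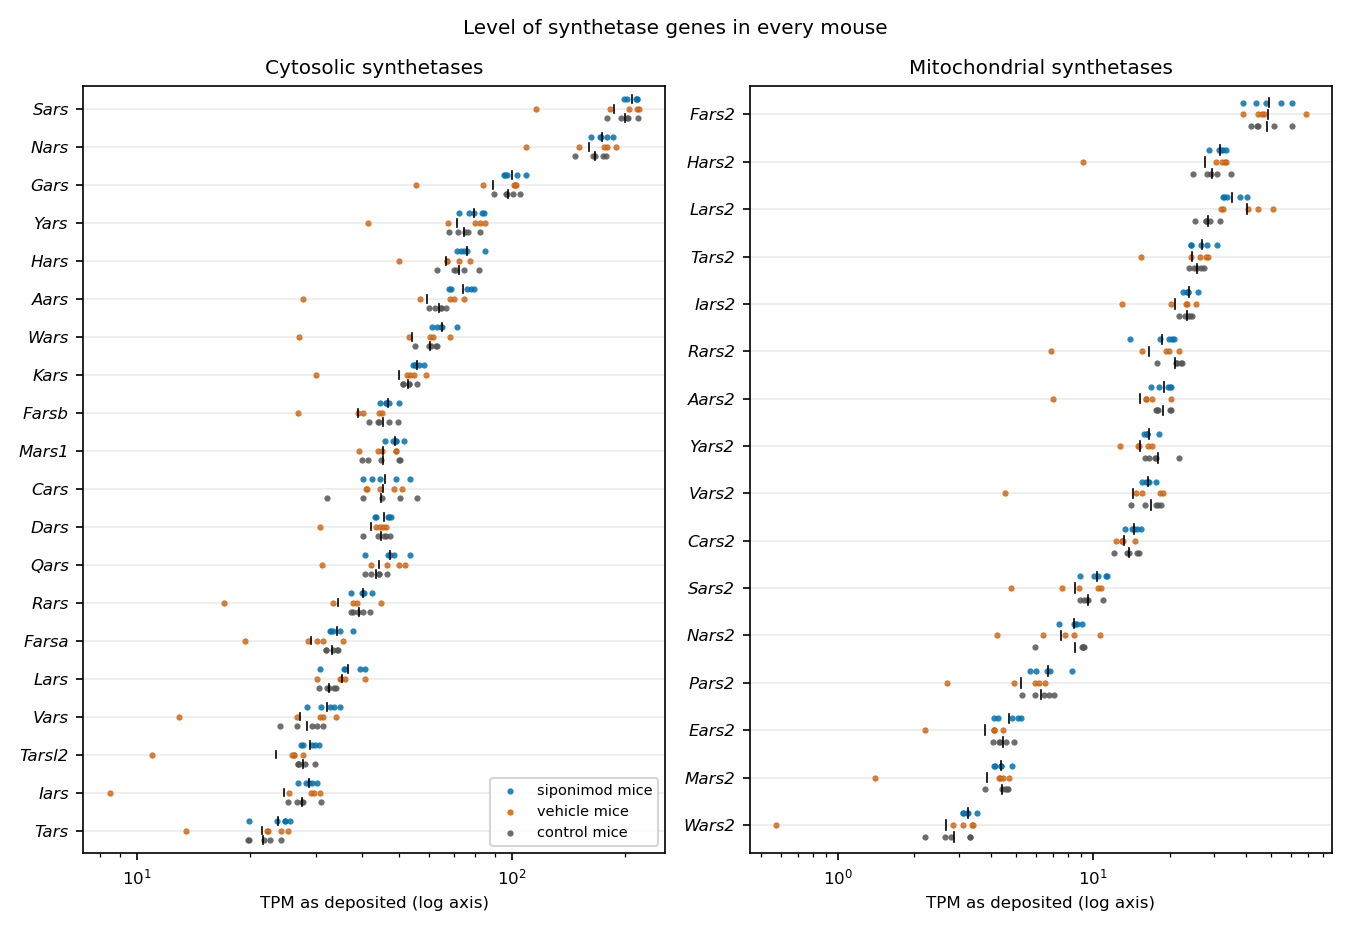
TPM as deposited (log axis) of the 20 cytosolic (left) and 16 of the 17 mitochondrial (right) synthetase genes, 1 point per mouse, with siponimod above vehicle above control within each gene and a bar at each group mean. Most groups overlap, the isolated low points of many genes are vehicle mouse 1, and Lars2 is the gene whose vehicle and siponimod points all lie above its control points.

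Some of these values are shared with other genes. Exons of 15 of the 37 genes overlap exons of another gene in GENCODE M21, 14 of them on the opposite strand, and the strand setting of the quantification is not given. The overlap matters most where the partner is abundant or moves. Fars2 shares 501 exon bases with Nrn1, a neuronal growth factor gene at 177 to 247 TPM in siponimod, 115 to 216 TPM in vehicle and 218 to 268 TPM in control mice. Iars2 shares 2034 bases with Rab3gap2, a subunit of a GTPase-activating complex, and Mars1 shares 68 bases with Ddit3, described below. On the same strand, Aars shares 1326 bases with Exosc6 and Tarsl2 shares 120 bases with Tm2d3. Levels of these partners are not given here. Also on the same strand, Iars has 767 of its 5273 distinct 31-base words in common with the processed pseudogene Gm4849. Within GENCODE M21, Lars2 shares no exon bases with another gene, and at most 38 of its 11160 such words with any 1 gene. Whether Lars2 shares sequence with RNA outside that annotation was not tested.

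The vehicle against control comparison asks what cuprizone with vehicle did to these transcripts. A single synthetase gene rose, Lars2, the mitochondrial leucine enzyme, and none fell. It lies on chromosome 9 (GRCm38, 123366927 to 123462666, plus strand). Lars2 had 32.6, 32.4, 33.6, 37.7 and 40.1 TPM in siponimod mice, 31.7, 51.0, 32.5, 40.8 and 44.5 TPM in vehicle mice and 25.2, 27.7, 27.7, 28.8 and 31.6 TPM in control mice. As deposited, every vehicle and every siponimod value was above the highest control value, though the lowest vehicle value, that of mouse 1, cleared it by little. After scaling, vehicle mouse 1 was instead the highest vehicle mouse, at 67.8 scaled TPM, with the other vehicle mice at 32.5 to 49.8 and control mice at 24.9 to 29.6. Scaled siponimod values were 29.5 to 39.3, so that siponimod mouse 2 lay just within the control range, and the vehicle values stayed above it.

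The log2 fold change of Lars2 in vehicle against control was 0.73 ± 0.154 (SE, n = 5 each, limma adjusted p = 0.0194), a 1.65-fold difference. Without vehicle mouse 1 and siponimod mouse 1 it was 0.57 (limma adjusted p = 0.00597), where 4.36% of genes were called, 2.41% higher and 1.95% lower. The call was lost without control mouse 1, without control mouse 4 and without vehicle mouse 2, where the log2 fold change was 0.68 to 0.73 and the limma adjusted p reached 0.0581, and it was lost with TPM as deposited (0.48, limma adjusted p = 0.122) and with the vehicle and control mice fitted alone (0.73, limma adjusted p = 0.073). In this comparison 427 of 17714 genes were called (2.41%), 1.38% of genes higher and 1.03% lower, so 1 called among 37 is close to the background. Of those called, 57.1% were higher, against 34.1% with TPM as deposited and 47.8% with Bc1 taken out before scaling.

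The other 36 synthetases did not pass the test, and with scaled TPM the change that the data allow was small for most. The intervals depend on the scaling, since with TPM as deposited the median log2 fold change over all genes was −0.21. The 95% limma interval lay within 1.5-fold in either direction for 6 of 7 complex members, 12 of 13 other cytosolic members and 15 of 17 mitochondrial members. Besides Lars2, those whose interval reached further were Lars, the cytosolic leucine enzyme, Cars, the cytosolic cysteine enzyme, and Fars2. Lars had 40.5, 35.9, 39.5, 30.8 and 35.8 TPM in siponimod mice, 30.2, 35.1, 34.8, 36.0 and 40.6 TPM in vehicle mice and 33.9, 33.6, 32.2, 32.5 and 30.7 TPM in control mice. The groups overlapped, and its log2 fold change in vehicle against control was 0.36 ± 0.146 (SE, n = 5 each, limma adjusted p = 0.35). Qars and Tars, the glutamine and threonine enzymes, stood at 0.25 and 0.21 with limma adjusted p of 0.358 and 0.379. With vehicle mouse 1 alone left out, Lars was at 0.18, Qars at 0.14 and Tars at 0.14. Without vehicle mouse 1 and siponimod mouse 1, Lars2 was the only one of the 37 whose interval reached beyond 1.5-fold.

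The 4 genes whose human counterparts were named above for white matter disease were among those that did not pass in any comparison. Dars, the cytosolic aspartate enzyme, averaged 45.6 ± 2.12 TPM in siponimod mice, 42.05 ± 6.41 TPM in vehicle mice and 44.7 ± 2.87 TPM in control mice (SD, n = 5 each). Rars, the cytosolic arginine enzyme, ran from 37.3 to 42.5 TPM in siponimod, 17.1 to 44.8 TPM in vehicle and 37.4 to 41.8 TPM in control mice, the low vehicle value being that of mouse 1. Its log2 fold change was −0.0096 in vehicle against control, with a 95% interval of −0.16 to 0.14, and 0.026 in siponimod against control, from −0.13 to 0.18. Ears2 and Aars2, the mitochondrial glutamate and alanine enzymes, stood at −0.017 and −0.12 in vehicle against control (limma adjusted p = 0.935 and 0.652) and at 0.067 and 0.017 in siponimod against control (limma adjusted p = 1.00 for both). For all 4 genes the intervals of the 3 comparisons lay within 1.5-fold with scaled TPM.

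As a description of the 37, medians and signs moved with the scaling. The median log2 fold change was 0.15 over the complex members, 0.12 over the other cytosolic members and 0.018 over the mitochondrial members, beside 0.0073 over all genes tested. Of the 20 cytosolic genes 17 were above 0, among them Sars, Nars and Yars, and of the 17 mitochondrial genes 10. With TPM as deposited the cytosolic median was −0.12 and the mitochondrial −0.21, where all genes had a median of −0.21. Without vehicle mouse 1 and siponimod mouse 1 they were 0.065 and −0.020, beside −0.014 over all genes. With any 1 mouse left out the mitochondrial median ran from −0.027 to 0.060.

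The siponimod against control comparison asks the same of cuprizone with siponimod, against the same control mice. No synthetase passed the test, where 209 of 17714 genes were called (1.18%), 0.429% higher and 0.751% lower. Aars was the only synthetase with an unadjusted limma p under 0.05, a level reached by 1289 of all 17714 genes (7.28%). Of the called genes 36.4% were higher, a share that was 28.0% with TPM as deposited. Aars, the alanine enzyme on chromosome 8, had 67.9, 79.6, 77.9, 69.0 and 75.8 TPM in siponimod mice, 27.8, 57.1, 68.6, 70.0 and 74.5 TPM in vehicle mice and 64.9, 67.0, 60.2, 64.9 and 62.3 TPM in control mice. As deposited, all siponimod values were above all control values, and the vehicle values spread across both. After scaling, siponimod values were 63.1 to 74.3 and control values 56.2 to 64.0, so that siponimod mouse 1 lay within the control range. Its log2 fold change in siponimod against control was 0.21 ± 0.0728 (SE, n = 5 each, limma adjusted p = 0.354). It passed the test only when mice were weighted by their fit to the model (0.23, limma adjusted p = 0.0481), where 3.12% of genes were called. Without vehicle mouse 1 and siponimod mouse 1 it was 0.24 (limma adjusted p = 0.0687), where 2.2% of genes were called, 0.977% higher and 1.23% lower. Without vehicle mouse 1 alone it was 0.21 (limma adjusted p = 0.109). Siponimod mouse 1 had the lowest scaled Aars value of its group, so leaving it out raised the fold change.

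Lars2 differed from control mice by 0.31 ± 0.154 in siponimod mice (log2, SE, n = 5 each, limma adjusted p = 0.739), and by 0.34 without vehicle mouse 1 and siponimod mouse 1 (limma adjusted p = 0.163). All 20 cytosolic genes were above 0 in this comparison, between 0.025 and 0.21 on the log2 scale, with a median of 0.070, and the mitochondrial median was 0.053, beside 0.0039 over all genes. With 1 mouse left out these medians ran from 0.048 to 0.11 and from 0.012 to 0.068. The lowest such values were below 0 for Cars (−0.064), Rars (−0.0099) and Gars (−0.0067), and the other cytosolic genes stayed above 0. The intervals of 35 of the 37 genes lay within 1.5-fold, the exceptions being Lars2 and Fars2. Without vehicle mouse 1 and siponimod mouse 1 all 37 did. Rars2, the mitochondrial arginine enzyme, had the lowest value, −0.18 ± 0.113 (SE, n = 5 each, limma adjusted p = 0.961).

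Siponimod and vehicle mice were compared directly to ask whether the drug altered these transcripts under cuprizone. No synthetase passed the test, nor did any of the 17714 genes (0%), of which 801 had an unadjusted limma p under 0.05, and the authors' deposited table calls 279 genes (2.05%) at an adjusted p under 0.05, none of them a synthetase. The synthetases with an unadjusted limma p under 0.05 were Lars2, with a log2 fold change of −0.42 ± 0.154, and Tarsl2, a second cytosolic threonine enzyme, with 0.13 ± 0.0556 (SE, n = 5 each, limma adjusted p = 0.778 for both). Without vehicle mouse 1 and siponimod mouse 1 they were −0.23 (limma adjusted p = 0.576) and 0.13 (limma adjusted p = 0.441). Tarsl2 shares 120 exon bases with Tm2d3 on the same strand, so reads over those bases can count for either. With scaled TPM, the 95% limma interval of the difference lay within 1.5-fold for all 7 complex members. It also did for 12 of 13 other cytosolic members and 14 of 17 mitochondrial members. Without vehicle mouse 1 and siponimod mouse 1 it did for all 37. Cars, Fars2, Lars2 and Wars2 were the 4 that reached further with all mice, from −0.69 to 0.23 for Cars, −0.86 to 0.38 for Fars2, −0.74 to −0.087 for Lars2 and −0.16 to 0.59 for Wars2.

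**Figure D2:**
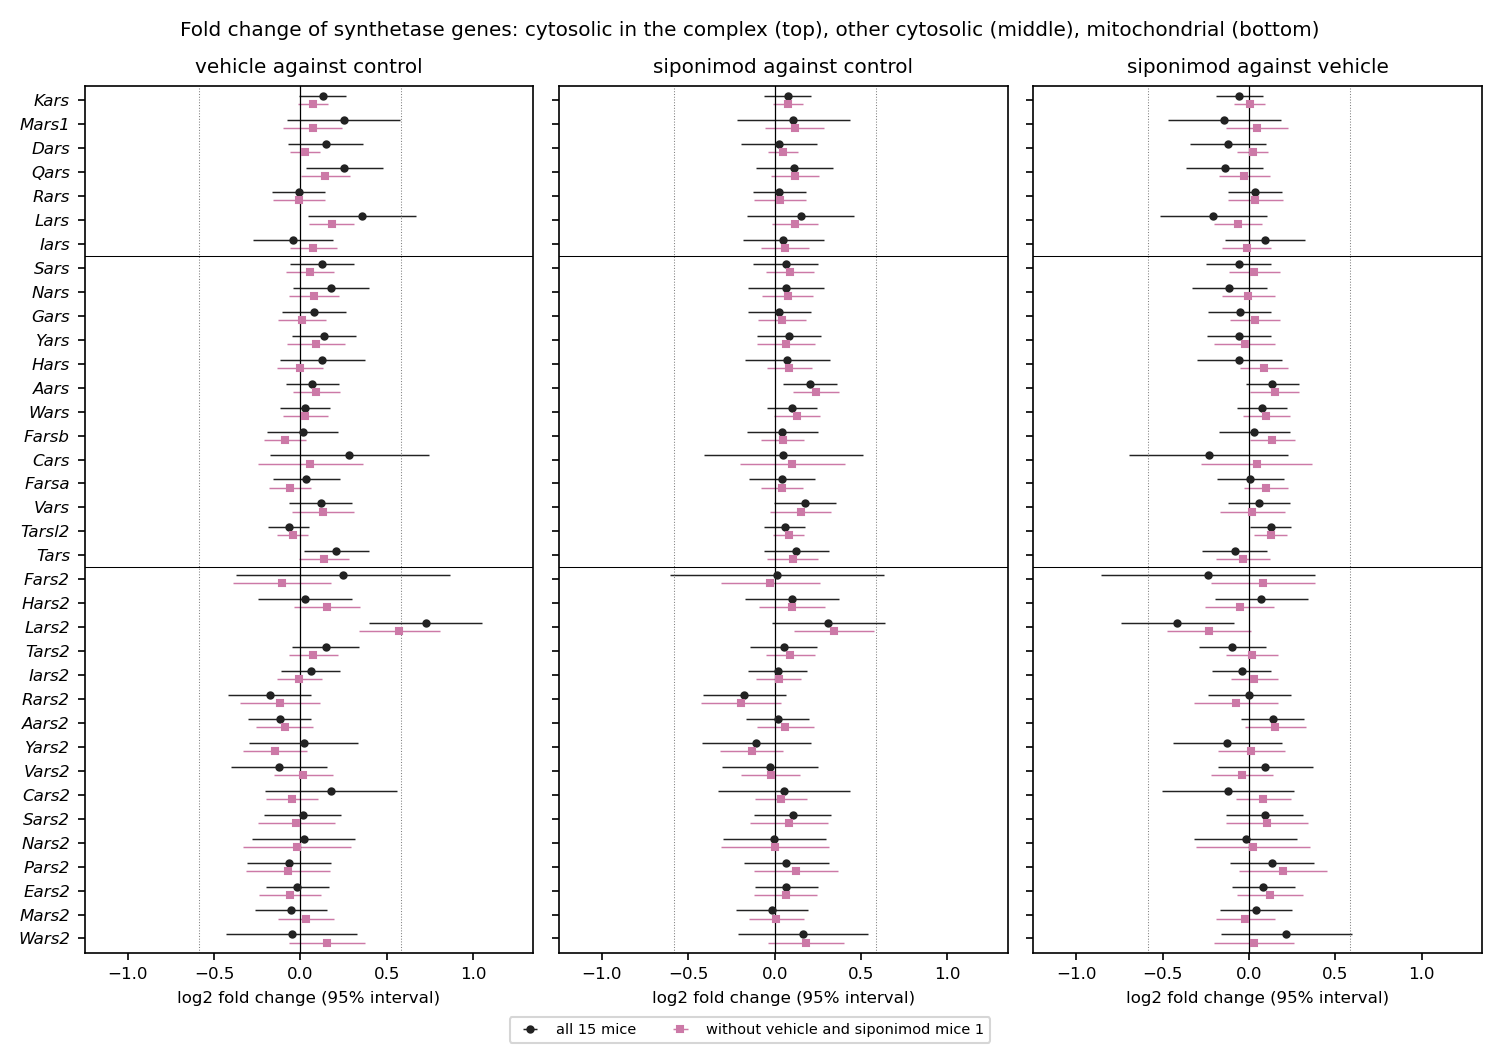
Log2 fold change (points) with 95% limma intervals (bars) of 36 of the 37 synthetase genes, in the 3 comparisons (vehicle with control left, siponimod with control middle, siponimod with vehicle right), with all 15 mice and without vehicle and siponimod mice 1, and dotted lines at 1.5-fold. Lars2 in the left panel, at 0.73, is the only call with all mice.

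The authors' deposited tables, from an unnamed test, called more genes overall (6.66% in vehicle against control and 5.14% in siponimod against control) and more synthetases. In vehicle against control the authors' deposited table has 4 of the 37 higher at an adjusted p under 0.05. It gives Lars2 a log2 fold change of 0.60 (adjusted p = 6.1e-07), Lars 0.27 (adjusted p = 0.00053), Tars 0.17 (adjusted p = 0.0178) and Mars1 0.17 (adjusted p = 0.0359). In siponimod against control the authors' deposited table has 3 higher, Lars2 at 0.34 (adjusted p = 0.00077), Mars1 at 0.21 (adjusted p = 0.0061) and Aars at 0.17 (adjusted p = 0.032). None is lower in either. Mars1, the methionine enzyme, had 48.2, 49.0, 46.0, 51.6 and 49.2 TPM in siponimod mice, 39.1, 44.0, 45.2, 49.2 and 49.2 TPM in vehicle mice and 50.4, 49.96, 39.8, 44.9 and 41.4 TPM in control mice, groups that overlap. In the limma fit Mars1 stood at 0.25 in vehicle against control (limma adjusted p = 0.612) and 0.11 in siponimod against control (limma adjusted p = 1.00). Scaled, vehicle mouse 1 was at 83.5 and the other vehicle mice at 42.9 to 45.9, and without it the vehicle value of Mars1 was 0.072.

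Eprs, on chromosome 1 (GRCm38, 185363044 to 185428360, plus strand), was called in both comparisons with control, which share their control mice. It had 52.5, 50.9, 50.7, 48.6 and 51.1 TPM in siponimod mice, 30.2, 48.0, 50.1, 49.0 and 58.8 TPM in vehicle mice and 35.0, 37.1, 39.2, 40.4 and 35.9 TPM in control mice. Siponimod values were all above control values, as were vehicle values apart from mouse 1, which as deposited was below every control mouse and after scaling, at 64.7, above them. The log2 fold change of Eprs was 0.54 ± 0.0817 in vehicle against control (limma adjusted p = 0.00138) and 0.43 ± 0.0817 in siponimod against control (SE, n = 5 each, limma adjusted p = 0.013). Both calls were lost with TPM as deposited (0.30 and 0.43, limma adjusted p = 0.461 and 0.377), and both held with any single mouse left out. Siponimod against vehicle mice gave −0.12 ± 0.0817 (SE, n = 5 each, limma adjusted p = 0.778). The 3 scaffold genes did not pass: Aimp1 averaged 62.5 ± 5.17, 60.8 ± 3.04 and 60.9 ± 5.05 TPM in siponimod, vehicle and control mice, Aimp2 24.8 ± 1.49, 22.6 ± 1.09 and 24.3 ± 1.73 TPM, and Eef1e1 23.7 ± 3.74, 19.3 ± 2.08 and 20.7 ± 3.52 TPM (SD, n = 5 each).

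**Figure D3:**
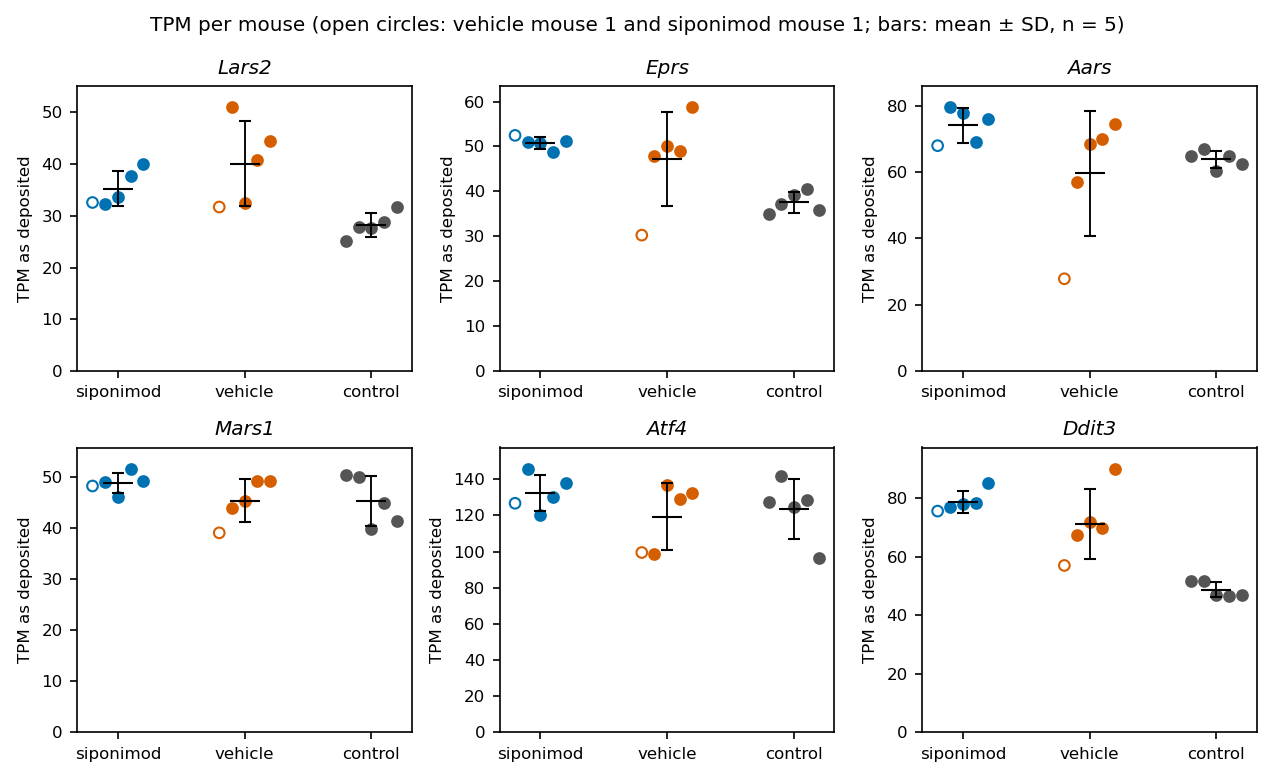
TPM as deposited in every mouse (points) with mean and SD (bars, n = 5) for Lars2, Eprs, Aars, Mars1, Atf4 and Ddit3, siponimod left, vehicle middle and control right; open circles are vehicle mouse 1 and siponimod mouse 1. Siponimod points lie above all control points for Lars2, Eprs, Aars and Ddit3 as deposited, but after scaling only for Eprs and Ddit3 of these 4, and the groups overlap for Mars1 and Atf4.

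The synthetases can be set beside other listed genes of amino acid handling and of the ATF4 programme, since many cytosolic synthetases are known targets of ATF4. Of 16 regulators in that programme, 8 rose and none fell in vehicle against control, and 8 rose and none fell in siponimod against control, with median log2 fold changes of 0.54 and 0.62, where 1.38% and 0.429% of all genes were called higher. Both comparisons use the same control mice. Atf5, a transcription factor, had 112, 114, 109, 130 and 120 TPM in siponimod mice, 61.2, 116, 100.4, 114 and 133 TPM in vehicle mice and 23.0, 26.01, 19.4, 19.9 and 17.6 TPM in control mice. Its log2 fold change was 2.50 ± 0.112 in vehicle and 2.44 ± 0.112 in siponimod against control (SE, n = 5 each, limma adjusted p = 1.1e-08 and 1.5e-08), without any overlap of either with control mice.

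Trib3, a pseudokinase, averaged 8.20 ± 1.46 TPM in siponimod, 6.08 ± 1.91 TPM in vehicle and 0.72 ± 0.16 TPM in control mice, and Nupr1, a stress-induced chromatin protein, 65.6 ± 5.18, 66.3 ± 6.09 and 15.01 ± 1.61 TPM (SD, n = 5 each). Ddit3, which encodes the transcription factor CHOP, averaged 78.8 ± 3.69, 71.2 ± 12.02 and 48.8 ± 2.64 TPM (SD, n = 5 each). Its log2 fold change was 0.77 in vehicle and 0.68 in siponimod against control (limma adjusted p = 0.00574 and 0.021). The siponimod call of Ddit3 was lost without control mouse 3, 4 or 5 or siponimod mouse 4 or 5, at 0.64 to 0.67 with a limma adjusted p of up to 0.0701. Ddit3 and Mars1 overlap tail to tail on chromosome 10 (GRCm38, 127296221 to 127296288), so reads over those 68 bases can count for either.

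Atf4 mRNA itself had 127, 146, 120, 130 and 138 TPM in siponimod mice, 99.5, 98.8, 137, 129 and 132 TPM in vehicle mice and 127, 142, 124, 129 and 96.3 TPM in control mice. The groups overlapped, and neither comparison with control passed (0.19 in vehicle and 0.10 in siponimod mice on the log2 scale, limma adjusted p = 0.68 and 1.00). None of 9 genes of the eIF2 kinases and phosphatase was called in any comparison.

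Of 14 genes of amino acid synthesis, 3 rose and none fell in vehicle against control (Mthfd2, Pycr1 and Psph), and 2 rose and none fell in siponimod against control (Mthfd2 and Pycr1). Mthfd2, a mitochondrial enzyme of folate metabolism, averaged 16.9 ± 1.30 TPM in siponimod, 14.9 ± 4.04 TPM in vehicle and 8.17 ± 1.93 TPM in control mice (SD, n = 5 each), a log2 fold change of 1.05 in vehicle and 1.03 in siponimod against control (limma adjusted p = 0.00088 and 0.0015). Of 11 amino acid transport genes tested, 4 rose and none fell in both comparisons (Slc7a11, Slc3a2, Slc1a4 and Slc7a5). Slc7a11, the cystine importer, averaged 24.9 ± 3.83, 21.3 ± 8.99 and 8.32 ± 1.31 TPM and its partner chain Slc3a2 171 ± 11.3, 162 ± 34.6 and 112 ± 5.06 TPM in siponimod, vehicle and control mice (SD, n = 5 each).

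Several of these calls lost significance with 1 mouse left out, at the log2 fold changes given here. In vehicle against control the call of Psph, the last enzyme of serine synthesis, was lost without 1 of 8 mice (every control mouse, vehicle mouse 5, siponimod mice 2 and 5), at 0.73 to 0.81. That of Pycr1, the last enzyme of proline synthesis, was lost without 1 of 9 mice (control mice 1, 3, 4 and 5, vehicle mice 2 to 5, siponimod mouse 2), at 0.59 to 0.69. Slc7a5, a carrier of large neutral amino acids, was lost without 1 of 8 mice (control mice 1, 3, 4 and 5, vehicle mice 2 to 5), at 0.66 to 0.82. Slc1a4, a carrier of alanine, serine and cysteine, was lost when control mouse 1, 4 or 5 or vehicle mouse 3 was left out, at 0.39 to 0.41. In siponimod against control Pycr1 was lost without 1 of 7 mice (control mice 1, 3, 4 and 5, siponimod mice 2, 4 and 5), at 0.67 to 0.75, Slc1a4 without 1 of 7 (control mice 1, 4 and 5, siponimod mice 1, 2, 4 and 5), at 0.38 to 0.43, and Slc7a5 without 1 of 11 (every control mouse, vehicle mice 2 and 3, siponimod mice 1, 2, 4 and 5), at 0.77 to 0.88.

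None of 11 genes of transamidation, formylation and editing, 6 of selenocysteine tRNA and 11 of tRNA export and elongation was called in either comparison with control. Xpot, a tRNA exporter of the last of these lists, rose in siponimod against control when vehicle mouse 1 and siponimod mouse 1 were left out (0.29, limma adjusted p = 0.0255). In the same setting 6 and 5 genes of amino acid synthesis rose in vehicle and in siponimod against control. Of amino acid transport 5 and 4 genes rose, and Slc6a9, a glycine transporter, fell in both. Calls over all genes also rose there, from 2.41% to 4.36% in vehicle and from 1.18% to 2.2% in siponimod against control. Across the 8 lists, 16 genes were called in vehicle against control and 15 in siponimod against control, against 7 and 10 with TPM as deposited, and none in siponimod against vehicle. Side by side, the spans of the synthetases and of the regulators were as follows. The 37 synthetases ran from −0.18 to 0.73 in vehicle against control and from −0.18 to 0.31 in siponimod against control, and the 16 ATF4 programme regulators from −0.21 to 2.65 and from −0.11 to 2.8 on the log2 scale.

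**Figure D4:**
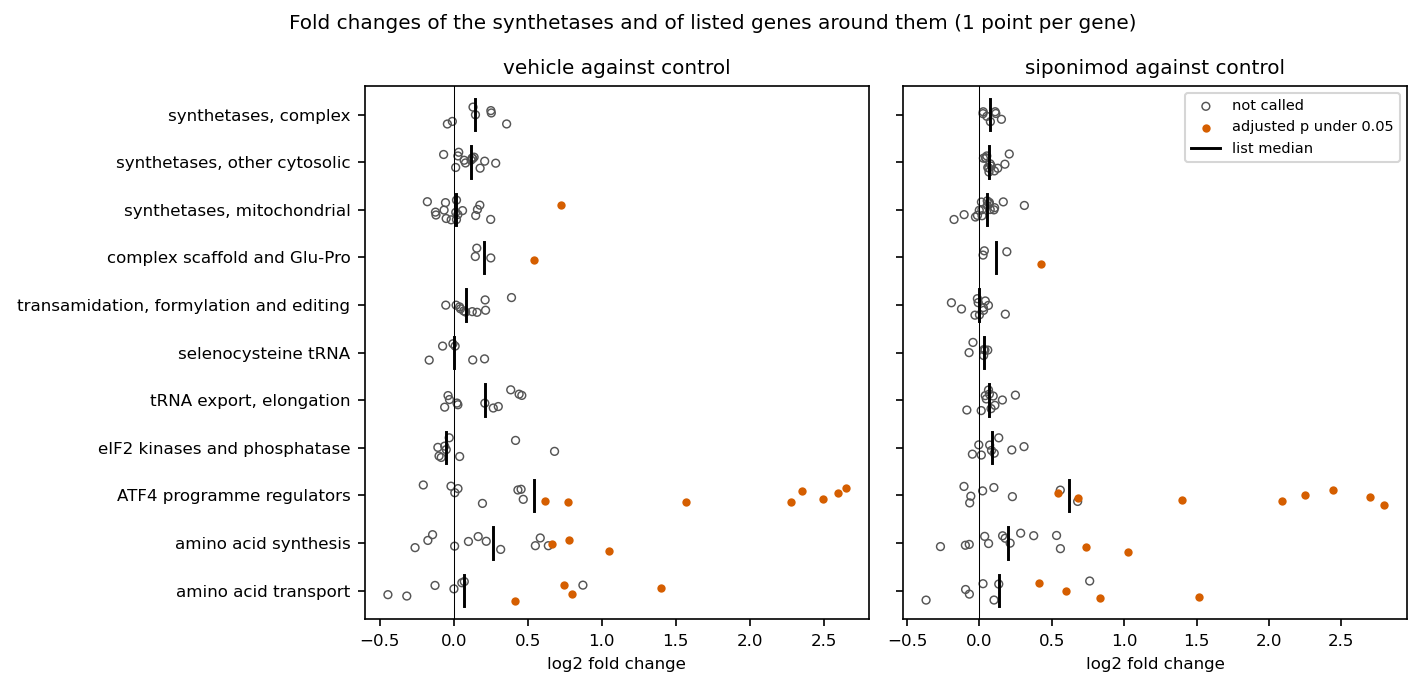
Log2 fold change of each synthetase gene (top 3 rows) and of listed companion genes, 1 point per gene, in vehicle against control (left) and siponimod against control (right), with called genes filled and the list median as a bar. In the left panel Lars2 lies at 0.73 and the other synthetase points between −0.18 and 0.36. In the right panel all synthetase points lie between −0.18 and 0.31. Of 16 ATF4 programme regulators, 8 are called in each panel. With TPM as deposited Lars2 stands at 0.48 in the left panel, where the median over all genes is −0.21.

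Promoter sequences of the synthetases were read for the letters of the C/EBP-ATF response element, TGATGNAA on either strand, the composite site through which ATF4 acts. RefSeq (GRCm38.p6) had promoter entries for 27 of the 37 genes. The element was within 250 bases before the start in 3 of the 27, Aars, Gars and Tars, and in 3.45% of all 32851 promoter entries. Here and below, listed genes were counted by gene and the shares of all by promoter entry. The units differ, so no enrichment can be read from setting them side by side. None of the 3 was called in the limma fit, apart from Aars when mice were weighted by their fit to the model. The authors' deposited tables call Tars in vehicle against control (log2 fold change 0.17, adjusted p = 0.0178). They call Aars in siponimod against control (0.17, adjusted p = 0.032). Eprs, the 3 scaffold genes and Lars2 had entries without the element. Among the ATF4 programme regulators 6 of 16 held it, in amino acid synthesis 3 of 12 and in amino acid transport 1 of 8. The transport gene was Slc7a11, called in both comparisons with control. It held the element at positions −66 to −59 and −47 to −40 from the start, and its stretches are not shown. Of the 3 genes of amino acid synthesis with the element, only Pycr1 was called in either comparison with control. The stretches around the element in the 3 synthetases are shown first. Those of 3 called companion genes follow, the regulators Atf3 and Nupr1 and the amino acid synthesis gene Pycr1. These 3 were taken from called genes only, so they do not show how often genes with the element were called. Stretches run 5′ to 3′ on the strand of the gene with the element in capitals.
Aars (chr8:111033700-111033767, plus strand): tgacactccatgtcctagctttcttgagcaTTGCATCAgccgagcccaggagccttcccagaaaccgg
Gars (chr6:55037941-55038000, plus strand): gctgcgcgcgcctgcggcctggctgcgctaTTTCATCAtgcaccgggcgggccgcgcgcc
Tars (chr15:11399659-11399703, minus strand): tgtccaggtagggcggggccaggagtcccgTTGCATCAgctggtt
Atf3 (chr1:191183406-191183473, minus strand): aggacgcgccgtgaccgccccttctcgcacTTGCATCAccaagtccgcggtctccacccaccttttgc
Nupr1 (chr7:126625543-126625610, minus strand): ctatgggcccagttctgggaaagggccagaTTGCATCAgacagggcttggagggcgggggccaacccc
Pycr1 (chr11:120643814-120643881, minus strand): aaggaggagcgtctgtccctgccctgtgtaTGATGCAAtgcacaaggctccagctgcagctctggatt

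Aars, Tars, Atf3 and Nupr1 thus carry the same 8 letters, TTGCATCA, and Pycr1 their reverse complement, while Gars has a T at the free position. Gars averaged 100.2 ± 5.77 TPM in siponimod, 89.2 ± 20.4 TPM in vehicle and 98.0 ± 5.72 TPM in control mice (SD, n = 5 each). Tars averaged 23.8 ± 2.27, 21.6 ± 4.66 and 21.7 ± 1.89 TPM in the same order (SD, n = 5 each). Both held the element with overlapping groups. As deposited, the siponimod values of Aars, 67.9 to 79.6 TPM, were all above its control values, 60.2 to 67.0 TPM. After scaling, siponimod mouse 1 lay within the control range of Aars, and the vehicle values of Aars overlapped control values. Nupr1 held the element with both cuprizone groups separate from control mice. The cAMP response element TGACGTCA was in promoters of none of the 27 synthetase genes and in 1.55% of all promoter entries. The core letters of the NRF1 motif, GCGCATGC, were in those of Rars2, Vars2 and Wars2 and in 2.26% of all, and the E-box CACGTG in those of Aars, Farsb and Iars and in 6.02% of all. A match describes letters in these windows and shows no binding.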

How the data were processed

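Total RNA libraries from 15 mice were made with a stranded kit after removal of ribosomal RNA, per the labels' protocols, whereas the first line of each table names a 3 prime mRNA analysis. Which was used is not settled. The submitters' processing notes name bcl2fastq, Trim Galore 0.6.6, STAR 2.6.1d, Salmon 1.4.0 and mm10. The authors deposited 3 tables, each with TPM per mouse (identical between tables) and, per the file headers, a log2 fold change and its SE, their quotient (a score), a p-value and adjusted p-value, and a mean level over libraries (a signal). The authors' test is not given in the sources used here. TPM keep no read depth, so precision rests on the spread between mice.

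TPM were scaled to a common median gene, and limma 3.58.1 (R 4.3.3) was fitted to log2(scaled TPM + 0.5), 3 groups in 1 model, with trended empirical Bayes moderation and Benjamini-Hochberg adjustment over 17714 genes, called at adjusted p under 0.05. The pseudocount understates changes of low genes. The labels do not say how mice were assigned or handled, so p-values measure the spread between these mice. The fit was also run on simulated data, but no outcome is given here, so no conclusion is drawn from that run. Python 3.11.15, pandas 2.3.3, numpy 2.4.6 and matplotlib 3.10.9 did the rest. Exon overlaps and shared 31-base words came from GENCODE M21 and promoters from RefSeq. The 37 genes, the companion lists and the alternatives were chosen with earlier results of these data known. All synthetases may be named, but 1 of the 37, counted in every total, is not reported here by itself. Companion genes named are Eprs, Aimp1, Aimp2, Eef1e1, Atf4, Ddit3 and up to 4 called genes per list and comparison with the smallest adjusted p. Atf3, Xpot, Slc6a9 and the overlap partners were named after their values or positions were seen.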

Additional observations from a re-analysis of the deposited data

Results flagged for a closer look

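Of 114 groups of 5 mice looked at on the scaled log2 scale, 17 had a mouse whose gap to its nearest neighbour, as a share of the group's range, passed Dixon's critical value of 0.71, where chance gives about 1 in 20 groups. In 12 of them the mouse was vehicle mouse 1. It was the highest vehicle mouse for Cars2 (0.850), Dars (0.900), Fars2 (0.837), Hars (0.827), Kars (0.729), Lars (0.838), Mars1 (0.901), Tars (0.764) and Yars2 (0.745). It was the lowest for Hars2 (0.852), Mars2 (0.821) and Wars2 (0.856). The other 5 were a low control mouse 4 for Nars2 (0.895), a low vehicle mouse 5 for Pars2 (0.820), a low control mouse 5 (0.762) and a low siponimod mouse 4 (0.841) for Rars2, and a high control mouse 1 for Sars2 (0.771). None of these genes was called in any of the 3 comparisons.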

How the results depend on the processing

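Across 25 alternatives, 2775 values of synthetase genes were compared with those reported: 2769 kept their side of the threshold without a called value changing direction, 5 calls were lost (all Lars2 in vehicle against control), 1 was gained (Aars) and none reversed. Lars2 in vehicle against control ranged from 0.48 to 0.84 with a limma adjusted p of 0.00575 to 0.122. Synthetases called there were 0 with TPM as deposited and with the 2 groups alone, and 0 to 1 with 1 mouse left out. In siponimod against control there was 1 with array weights, 0 otherwise. Calls over all genes in vehicle against control were 220 with TPM as deposited, 773 without vehicle and siponimod mice 1, 697 with array weights, 247 with the 2 groups alone, and 267 to 672 with 1 mouse left out (672 without vehicle mouse 1). In siponimod against control they were 132, 390, 552 and 505 in the same order, and 151 to 529 with 1 mouse left out (529 without vehicle mouse 1). The share called higher in siponimod against control was 47.3% without vehicle mouse 1. With TPM as deposited the median log2 fold change was −0.123 (cytosolic) and −0.214 (mitochondrial) in vehicle against control, and 0.197 and 0.245 in siponimod against vehicle, while the median over all genes moved to −0.211 and 0.211. With Bc1 taken out the mitochondrial medians were −0.0945 and 0.127. With 1 mouse left out the cytosolic median in vehicle against control was 0.0652 to 0.164. The cause of these shifts was not tested. Same-numbered mice do not pair by the labels, and their deviations correlated between −0.0698 and 0.212 over 15 pairs, 3 of them over 0.1, with 4 of 15 mice closest to their own number. A replicate block gave 369, 181 and 0 calls over all genes and 1, 0 and 0 synthetases.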
